A study of Mus musculus with 6 samples.

Results

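The regions described here are the places on the mouse genome where estrogen receptor alpha (ERα) was found after ICI in the wild-type uterus and after no other ligand treatment in the study. They were selected on the peak lists themselves. All peaks of the 6 deposited lists were merged wherever they overlapped by at least 1 bp, and a merged region was kept if it held a wild-type ICI peak and no peak of the wild-type tamoxifen, mutant ICI or mutant tamoxifen list. A vehicle peak could be present or absent. This gave 4228 regions of 65146, or 6.49% of all merged regions, a share that the rule itself sets. No merged region held more than 1 wild-type ICI peak, so each of the 4228 stands for 1 of the 26482 peaks of that list. In all, 15.97% of the wild-type ICI peaks (95% counting interval 15.5 to 16.4) had no counterpart in another ligand list.

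ERα binding was mapped by chromatin immunoprecipitation and sequencing in uteri of ovariectomized C57BL/6J mice aged 12 weeks, which lack the ovarian source of estrogen. The groups were wild-type mice given ICI (fulvestrant), AF-2 mutant (AF2ERKI) mice given ICI, AF-2 mutant mice given tamoxifen, wild-type littermates given tamoxifen, and vehicle-treated AF-2 mutant and wild-type mice. Each ligand was given by intraperitoneal injection at 2 mg/kg in DMSO, vehicle was 50 µl of DMSO, and uteri were taken after 1 h. Each group was 1 library from the pooled uteri of 6 mice, so there is no spread between replicates and no difference between groups could be tested. Intervals below are exact (Clopper-Pearson) 95% binomial intervals that cover counting error only. The titles of all 6 samples, vehicle included, also carry a code, E1h, that the labels leave unexplained. It may stand for the 1 h of treatment or for an estrogen given beside the ligand or vehicle, in which case none of the lists would show binding without estrogen. Whole uterus holds epithelium, stroma and muscle, whose binding sites are not separated here.

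ERα is a nuclear receptor that binds DNA at estrogen response elements or through other factors, and its ligand sets the shape of its carboxy-terminal domain. Activation function 2 (AF-2) is the surface of that domain that recruits coactivators when an agonist is bound. Fulvestrant is a steroidal antagonist that disturbs AF-2 and promotes loss of the receptor protein, whereas tamoxifen is a nonsteroidal ligand that blocks AF-2 and is a partial agonist in the uterus. In mice with a mutated AF-2, such antagonists are known to act as agonists through the amino-terminal activation function.

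The lists differed in length, which bears on every class defined by absence from a list. Wild-type ICI had 26482 peaks, the shortest of the ligand lists, against 45837 for mutant ICI, 36538 for mutant tamoxifen and 37327 for wild-type tamoxifen. Mutant vehicle had 5027 peaks and wild-type vehicle 3712. Every peak was 200 bp wide and carried no height or score, and read depth is unknown. Absence of a peak from a list is therefore not absence of receptor. All coordinates are in mm9.

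Of the lists that the rule excludes, wild-type tamoxifen removed the most regions that neither of the other excluded lists held. Without that list in the rule, 6204 regions would be held by wild-type ICI alone. Without the mutant ICI list there would be 5217, and without the mutant tamoxifen list 4709. The regions that wild-type ICI shared with only 1 other ligand list were 989 with mutant ICI, 481 with mutant tamoxifen and 1976 with wild-type tamoxifen. At the edge of the rule, the outcome turned on single bases. The member on chromosome 2 at 142263857 to 142264072 touched a mutant tamoxifen peak end to end with a gap of 0 bp, and its own width includes a mutant vehicle peak. The member at 164169302 to 164169501 of chromosome 1 lay 1 bp from a wild-type tamoxifen peak, and that at 89397484 to 89397683 of chromosome 3 lay 1 bp from a mutant ICI peak. Just inside the shared class, the wild-type ICI peaks at 115349907 to 115350106 of chromosome 3, 13506879 to 13507078 of chromosome 8 and 64081732 to 64081931 of chromosome 13 overlapped the peak of another ligand by 1 bp. In all, 159 members lay within 50 bp of another ligand's peak, and 182 shared wild-type ICI peaks overlapped one by no more than 50 bp.

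Few of the regions were ERα sites under vehicle. A mutant vehicle peak was present in 83 of the 4228 regions, or 1.96% (1.57 to 2.43), and a wild-type vehicle peak in 63, or 1.49% (1.15 to 1.90). Among all 63548 regions with a ligand peak, 5.87% held a mutant vehicle peak and 5.21% a wild-type one, so both shares in the members were below the background. Low shares were not particular to the members. A vehicle peak of either genotype was in 3.29% of the regions of mutant ICI alone and 2.30% of those of wild-type tamoxifen alone. The share was 7.68% for mutant tamoxifen alone, against 3.24% for the members. The remaining 4091 members held no vehicle peak, and 9 held a vehicle peak of both genotypes. The first 3 of these along the genome were those at 10293976 to 10294279 of chromosome 2 and, on chromosome 4, at 43012668 to 43012903 and 100515061 to 100515298. The first and the last of them were 236 bp and 105 bp from a peak of another ligand, and the middle one was 10296 bp from any.

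The more ligand lists held a wild-type ICI region, the more often it was also a vehicle site. The share with a mutant vehicle peak was 1.96% in the members, 3.42% (2.84 to 4.09) in regions held by 2 ligand lists, 6.66% (5.87 to 7.52) in those held by 3 and 8.60% (8.16 to 9.06) in those held by all 4. For wild-type vehicle the shares were 1.49%, 3.98% (3.35 to 4.68), 4.94% (4.26 to 5.69) and 14.2% (13.6 to 14.8), in the same order of classes. Regions that wild-type ICI shared with a single other list tended to carry the vehicle peaks of that list's genotype. Those shared with wild-type tamoxifen held mutant vehicle peaks in 1.52% (1.03 to 2.16) and wild-type vehicle peaks in 5.41% (4.46 to 6.51). Those shared with mutant ICI held mutant vehicle peaks in 4.75% (3.51 to 6.27) and wild-type vehicle peaks in 1.52% (0.851 to 2.49). Those shared with mutant tamoxifen held them in 8.52% (6.19 to 11.4) and 3.12% (1.76 to 5.09) in the same order.

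**Figure D1:**
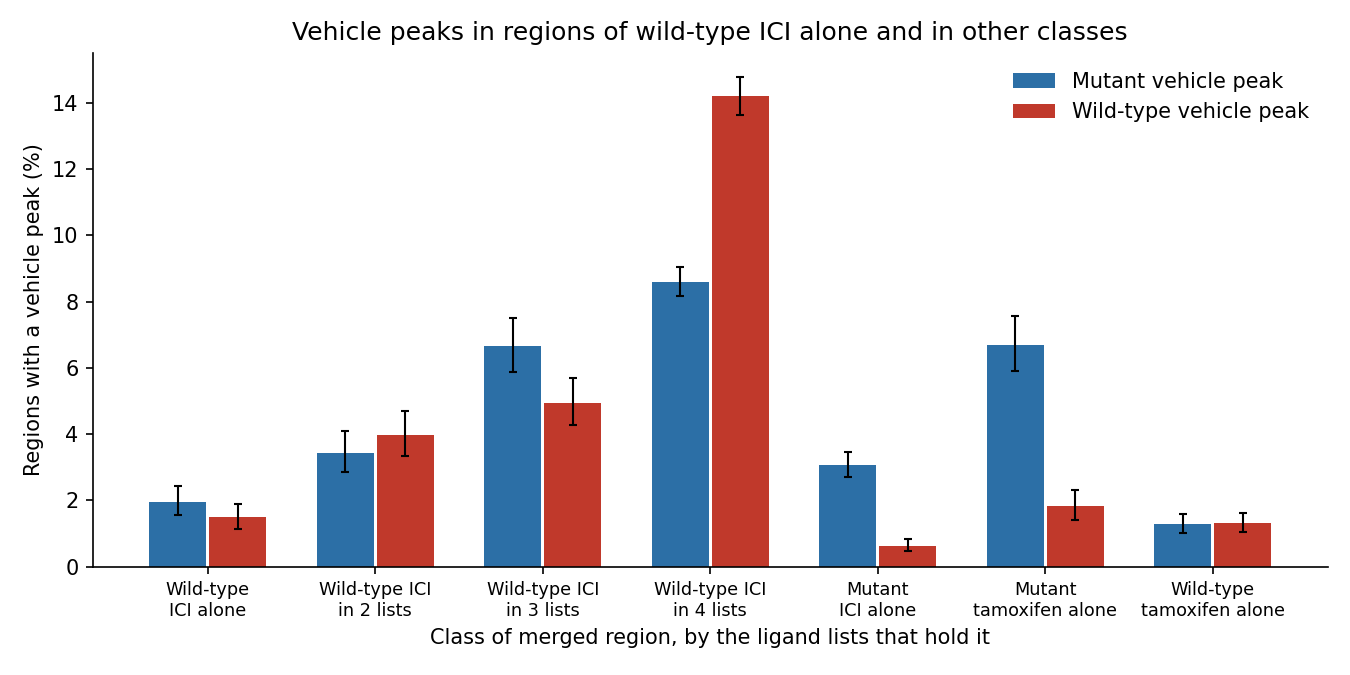
Percentage of merged regions that held a mutant (blue, left bar) or wild-type (red, right bar) vehicle peak, by the ligand lists that hold the region; error bars are exact 95% binomial intervals, for counting error only. Regions of wild-type ICI alone (4228) stood at 1.96% and 1.49%, and the red bar reached 14.2% in regions held by all 4 ligand lists.

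Within the regions of wild-type ICI alone, the share with a vehicle peak of their own genotype was not higher than the share with one of the mutant. The intervals for mutant and wild-type vehicle overlapped, although the mutant vehicle list is the longer one. Among the other single-list classes, the 8430 regions of mutant ICI alone had shares of 3.06% (2.70 to 3.45) for mutant vehicle and 0.629% (0.471 to 0.822) for wild-type vehicle. In the 3569 regions of mutant tamoxifen alone they were 6.70% (5.90 to 7.57) and 1.82% (1.41 to 2.32), and in the 6298 regions of wild-type tamoxifen alone 1.27% (1.01 to 1.58) and 1.32% (1.05 to 1.63). Both single-list classes of the mutant thus held peaks of the mutant vehicle list more often than those of the wild-type vehicle list, while in both wild-type classes the intervals of the 2 shares overlapped. These shares are not scaled for the length of the vehicle lists, 5027 peaks for the mutant and 3712 for the wild type. Both shares of a class come from the same regions, so overlap of their intervals does not show that they are equal.

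Many of the wild-type ICI regions were close neighbours of sites bound with another ligand. Distances are the bases between the wild-type ICI peak and the nearest peak of any of the other 3 ligand lists. The median was 5.68 kb, with quartiles of 0.738 and 17.8 kb. Of the 4228 peaks, 884 (20.9%, 19.7 to 22.2) lay within 500 bp of another ligand's peak, 1187 (28.1%, 26.7 to 29.5) within 1 kb and 2623 (62.0%, 60.6 to 63.5) within 10 kb. At the other end, 110 members had no such peak within 100 kb. The 3 most remote were at 79556524 to 79556723 of chromosome X, 29211328 to 29211527 of chromosome 1 and 115616839 to 115617038 of chromosome 12. They were 1239, 1209 and 1023 kb from any peak of another ligand.

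This closeness at short range was greater than in the other single-list classes. Within 1 kb of a peak of another ligand lay 28.1% of the members, 19.9% of the mutant ICI-alone peaks (19.1 to 20.8), 23.8% of the mutant tamoxifen-alone peaks (22.4 to 25.2) and 14.9% of the wild-type tamoxifen-alone peaks (14.1 to 15.8). Within 500 bp the values were 20.9%, 13.8%, 16.1% and 9.50% in that order. At 10 kb the order no longer held, with 62.0%, 60.5%, 64.9% and 52.2%. The rule sets which distances can occur, and each class is measured against 3 lists of its own. The members faced 119702 peaks, against 100347 for mutant ICI alone, 109646 for mutant tamoxifen alone and 108857 for wild-type tamoxifen alone.

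Measured against 1 list at a time, the members had the highest share for each of these 3 ligand lists, by margins that differed between lists. Of the members, 18.2% (17.0 to 19.4) lay within 1 kb of a wild-type tamoxifen peak, against 12.0% (11.3 to 12.7) of the mutant ICI-alone and 12.2% (11.2 to 13.3) of the mutant tamoxifen-alone peaks. A mutant tamoxifen peak lay within 1 kb of 18.3% of the members (17.1 to 19.5), against 15.4% (14.7 to 16.2) of the mutant ICI-alone and 8.86% (8.17 to 9.59) of the wild-type tamoxifen-alone peaks. For the mutant ICI list the shares were 20.5% (19.3 to 21.8) of the members, 19.4% (18.1 to 20.7) of the mutant tamoxifen-alone peaks, with overlapping intervals, and 11.0% (10.3 to 11.8) of the wild-type tamoxifen-alone peaks.

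**Figure D2:**
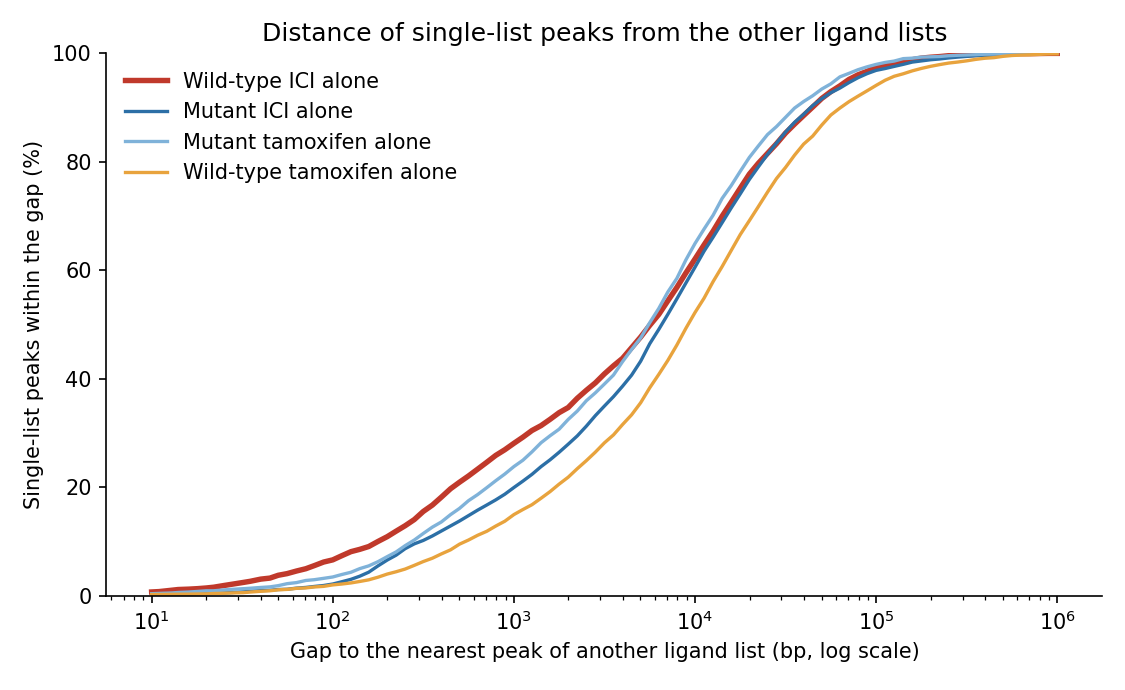
Cumulative percentage of peaks held by 1 ligand list alone (vertical axis) by the gap in bp to the nearest peak of any other ligand list (horizontal axis, log scale), 1 line per list. The wild-type ICI line (thick red) lies highest from 10 bp to about 5 kb and reaches 28.1% at 1 kb. It is no longer the highest line at 10 kb, where it stands at 62.0% and mutant tamoxifen at 64.9%.

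The closest of these neighbours were sites that wild-type ICI had no peak of its own in. Of the 459 members less than 200 bp from a peak of another ligand, 442 (96.3%) had a nearest region without a wild-type ICI peak. That region was held by all 3 other ligand lists for 139 members (30.3%), by 2 of them for 123 and by 1 for 180. These members are peaks beside, and not on, the place where the other ligands have theirs. On chromosome 1, for example, the wild-type ICI peak at 10983560 to 10983759 lay 5 bp from a region at 10983267 to 10983554 that held mutant ICI, mutant tamoxifen and wild-type tamoxifen peaks. On the same chromosome, the wild-type ICI peaks at 36637589 to 36637788 and at 36693556 to 36693755 lay 50 bp and 27 bp from regions of the same 3 lists. These examples are the first along the genome and were chosen after the pattern was seen. A nearest region with a wild-type ICI peak needs 2 peaks of that list close together. Only 34 neighbouring pairs in the list were less than 200 bp apart, so few members could have such a region. The 96.3% therefore does not set these sites apart.

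Beyond about 200 bp, nearest regions with a wild-type ICI peak were common. Under 100 bp, 1 of 279 nearest regions held a wild-type ICI peak (0.358%, 0.00907 to 1.98), and at 100 to 199 bp 16 of 180 did (8.89%, 5.17 to 14.0). At 200 to 499 bp the count was 200 of 425 (47.1%, 42.2 to 51.9), and at 1 to 10 kb 536 of 1436 (37.3%, 34.8 to 39.9). The share of nearest regions held by the other 3 ligand lists and not by wild-type ICI went the other way. It was 33.7% (94 of 279) under 100 bp and 45 of 180 at 100 to 199 bp, then 8.71% at 200 to 499 bp and 12.3% at 1 to 10 kb. A nearest region under 200 bp that holds a wild-type ICI peak needs 2 such peaks close together. The wild-type ICI list itself holds few of these. Its smallest gap between 2 peaks was 92 bp, and only 34 neighbouring pairs were less than 200 bp apart, against 624 in the mutant ICI, 322 in the mutant tamoxifen and 221 in the wild-type tamoxifen list. A nearest region without the class's own list was also the rule under 100 bp in the other single-list classes, at 99.6% for the members, 85.5% for mutant ICI alone, 94.3% for mutant tamoxifen alone and 94.4% for wild-type tamoxifen alone. At 100 to 199 bp the values were 91.1%, 23.3%, 47.4% and 50.8% in that order. The share under 100 bp whose nearest region was held by all 3 remaining ligand lists, without the class's own, was 33.7% for the members, against 14.0%, 15.6% and 16.9%. In both ranges, lists with more pairs under 200 bp apart had fewer nearest regions without their own list. The part of this peak spacing in the contrasts by distance and between classes was not tested. Seen from the other side, the regions that were missing from wild-type ICI but present after each of the other 3 ligand treatments numbered 7644, and 138 of them (1.81%) were the nearest region of a member less than 200 bp away.

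**Figure D3:**
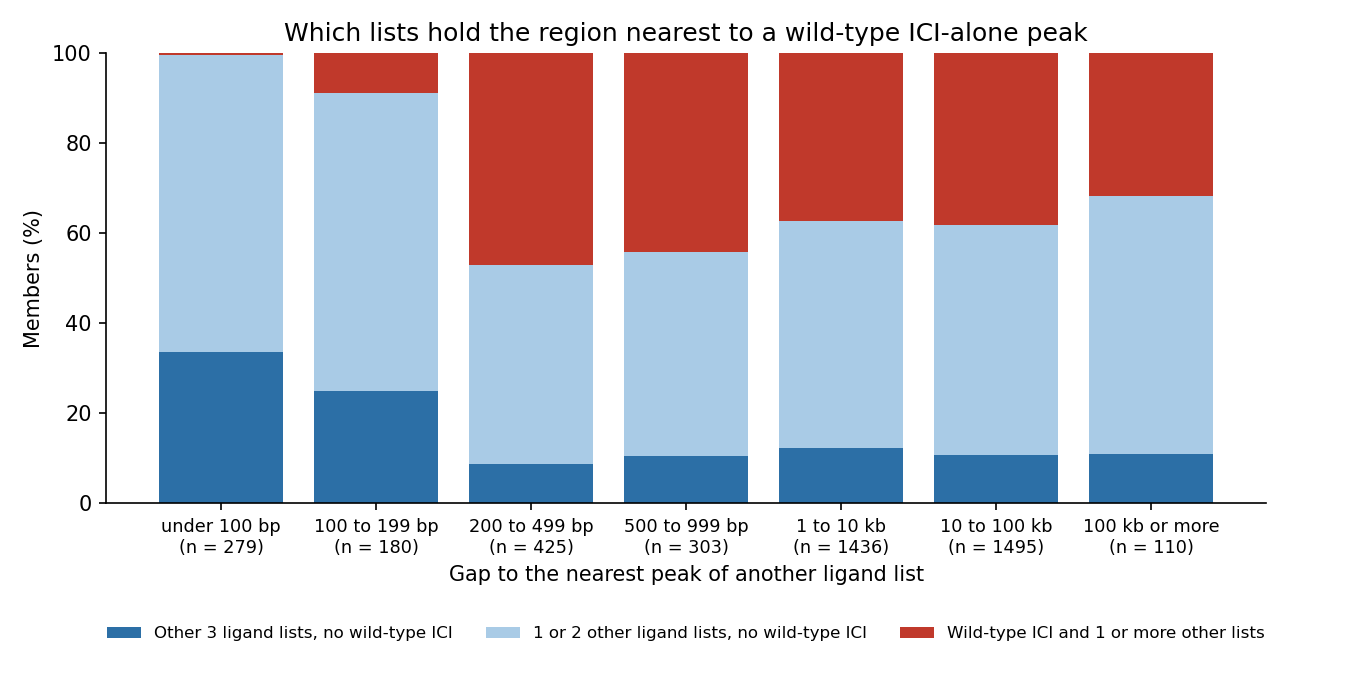
For the 4228 wild-type ICI-alone peaks, grouped by the gap to the nearest peak of another ligand list (horizontal axis, with the number in each group), the percentage whose nearest region was held by the other 3 ligand lists without wild-type ICI (dark blue), by 1 or 2 of them without wild-type ICI (light blue), or also by wild-type ICI (red). Red is nearly absent under 100 bp and makes up 8.89% at 100 to 199 bp and 47.1% at 200 to 499 bp. Dark blue is largest under 100 bp, at 33.7%.

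Wild-type ICI peaks were also placed less closely to those of the other lists where all 4 ligands shared a site. In the 15136 regions with exactly 1 peak of each ligand list, the centre of the wild-type ICI peak lay a median of 15 bp from the median centre of the other 3 lists. For mutant ICI, mutant tamoxifen and wild-type tamoxifen the same median was 10 bp each. An offset of over 100 bp was found for 2.246% of the wild-type ICI peaks (2.016 to 2.495), against 1.10% (0.943 to 1.28) for mutant ICI, 0.978% (0.827 to 1.15) for mutant tamoxifen and 1.10% (0.943 to 1.28) for wild-type tamoxifen. These regions are not members, and the part of this looser placement in the number of members beside another ligand's site was not tested. With peaks up to 200 bp apart merged as 1 region, 3743 regions of wild-type ICI alone were left, and with peaks up to 1000 bp apart 2974.

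**Figure D4:**
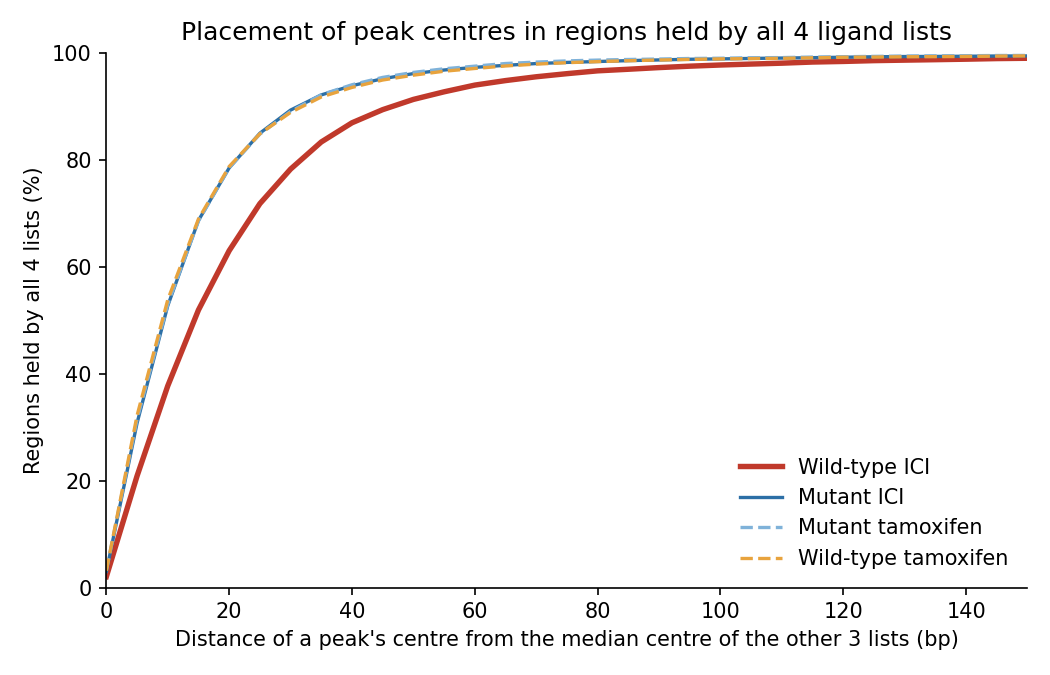
Cumulative percentage of the 15136 regions with 1 peak of each of the 4 ligand lists (vertical axis) by the distance in bp between a list's peak centre and the median centre of the other 3 lists (horizontal axis). The wild-type ICI line (thick red) lies below the other 3, which run on top of each other; the medians are 15 bp and 10 bp.

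Vehicle peaks were also counted within 1 kb of members. This span is wider than the member itself, so the higher counts do not mean that vehicle peaks favoured the surroundings. A mutant vehicle peak lay within 1 kb of 331 members (7.83%, 7.04 to 8.68), of which 248 did not hold it. For wild-type vehicle these counts were 210 (4.97%, 4.33 to 5.67) and 147. Most of these members also had another ligand's peak within 1 kb: 222 of the 331 near a mutant vehicle peak, and 148 of the 210 near a wild-type vehicle peak. The distance between the vehicle peak and that ligand peak was not measured. Among the 1187 members with another ligand's peak within 1 kb, 18.7% were near a mutant and 12.5% near a wild-type vehicle peak. Among the other 3041 members the shares were 3.58% and 2.04%. The share near a mutant vehicle peak, 7.83% in the members, was 5.44% (4.97 to 5.95) in the single-list peaks of mutant ICI, 9.69% (8.74 to 10.7) in those of mutant tamoxifen and 2.08% (1.74 to 2.46) in those of wild-type tamoxifen. The share near a wild-type vehicle peak was higher in the members, at 4.97%, than in the single-list peaks of mutant ICI (2.04%, 1.75 to 2.37), mutant tamoxifen (3.03%, 2.49 to 3.64) and wild-type tamoxifen (2.79%, 2.40 to 3.23).

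The remote members formed a large class as well. There were 1605 members (38.0%) more than 10 kb from every peak of another ligand. Of these, 1485 were also more than 10 kb from every vehicle peak, and 1387, or 32.8% of all members, were in addition more than 10 kb from every other wild-type ICI peak. These were solitary peaks of 1 library, with no ERα peak of any list around them at that range. The lists give no peak height to set them against the rest.

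Members lay in neighbourhoods with fewer ERα peaks than shared wild-type ICI sites did. Counting peaks with centres more than 1 and up to 50 kb away, which leaves out the site itself, a member had on average 3.32 mutant ICI, 2.65 mutant tamoxifen and 2.67 wild-type tamoxifen peaks around it. A wild-type ICI peak shared with another ligand had 4.400, 3.58 and 3.59 in the same order. Other wild-type ICI peaks averaged 2.01 around a member and 2.52 around a shared peak. No peak of the 3 other ligand lists lay in this range for 10.6% of the members and 6.81% of the shared peaks. The direction was the same in each other ligand list, so it is not particular to the members. For mutant ICI the values were 9.79% of the single-list and 7.52% of the shared peaks. For mutant tamoxifen they were 8.55% and 6.32%, and for wild-type tamoxifen 14.5% and 7.75%. The classes are made from the same lists, so these means describe them and test nothing.

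Within the wild-type ICI list, members stood somewhat farther from the next peak than shared peaks did. The nearest other wild-type ICI peak was a median of 16.1 kb from a member (quartiles 4.93 and 42.4 kb) and 12.3 kb from a shared peak (4.09 and 33.7 kb). At close range the order turned: within 1 kb of another wild-type ICI peak were 565 members (13.4%, 12.4 to 14.4) and 2556 shared peaks (11.5%, 11.1 to 11.9). At this range, members also had each other as neighbours more often than shared peaks had a member. Another member lay within 1 kb of 163 members (3.86%, 3.30 to 4.48), whereas a member lay within 1 kb of 438 shared peaks (1.97%, 1.79 to 2.16). Along the chromosomes, 687 members (16.2%) stood in 329 runs of 2 or more with no other merged region between them, most of them pairs (303 runs). Members are 6.49% of all merged regions and have a neighbour on either side, so runs arise from their number alone. The 16.2% is therefore not to be set against 6.49%. Runs were not counted for the other single-list classes, and whether members cluster was not tested.

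The longest run lay on chromosome 19 and held 5 members over 107.8 kb. They were at 5529774 to 5529973, 5540509 to 5540708, 5553899 to 5554098, 5567473 to 5567672 and 5637325 to 5637524. No peak of any other list, vehicle included, was called between the first and the last. The window of 100 kb that starts at 5500001 held 4 of them and no peak of the 5 other lists. A run of 4 members lay on chromosome 8 between 72411730 and 72497954, in a window with 5 wild-type ICI peaks, 1 mutant ICI, 1 mutant tamoxifen and 2 wild-type tamoxifen peaks.

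The 4228 members fell into 3582 windows of 100 kb, of which 3027 held 1 member and 555 held 2 or more. The fullest windows held 5. On chromosome 15 at 85000001 to 85100000, 5 of the 7 wild-type ICI peaks were members, beside 5 mutant ICI, 4 mutant tamoxifen, 3 wild-type tamoxifen and 1 mutant vehicle peak. These members were 1.18 to 16.3 kb from the nearest peak of another ligand, so this window held sites apart from those of the other ligands. On chromosome X at 45600001 to 45700000 all 5 wild-type ICI peaks were members, beside 3 mutant ICI, 1 mutant tamoxifen, 2 wild-type tamoxifen and 2 mutant vehicle peaks. Here the 3 members that start at 45638333, 45638945 and 45668050 lay 86, 126 and 98 bp from another ligand's peak, while the pair that starts at 45694312 and 45694810 was 26.4 and 26.9 kb away. The first of the windows with 4 members, on chromosome 1 at 36600001 to 36700000, was full of shared binding, with 7 wild-type ICI, 6 mutant ICI, 7 mutant tamoxifen, 7 wild-type tamoxifen and 3 wild-type vehicle peaks. Its 4 members were 27 to 918 bp from a peak of another ligand. Of the 3 windows, the one on chromosome X held members under 200 bp and members over 10 kb from another ligand's peak.

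Members were spread over all chromosomes roughly in proportion to the wild-type ICI list. They made up between 13.4% of the wild-type ICI regions on chromosome 8 (206 of 1540, 11.7 to 15.2) and 19.7% on chromosome X (105 of 533, 16.4 to 23.3). The interval for chromosome 8 lies below the share over all wild-type ICI regions, 15.97%, and that for X above it. These chromosomes were picked as the lowest and the highest. On the autosomes together the share was 15.9% (4122 of 25936, 15.4 to 16.3), whose interval just misses that of X. The corresponding shares on X and the autosomes were 185 of 925 (17.5% to 22.7%) and 8242 of 44883 (18.4%, 18.01 to 18.7) for mutant ICI alone, 14.2% (11.8 to 16.8) and 9.67% (9.37 to 9.99) for mutant tamoxifen alone, and 17.9% (15.1 to 20.9) and 16.9% (16.5 to 17.2) for wild-type tamoxifen alone. A higher single-list share on X was therefore seen in all 4 ligand lists, beyond the counting intervals for wild-type ICI and mutant tamoxifen. A single member lay on a sequence other than chromosomes 1 to 19 and X.

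**Figure D5:**
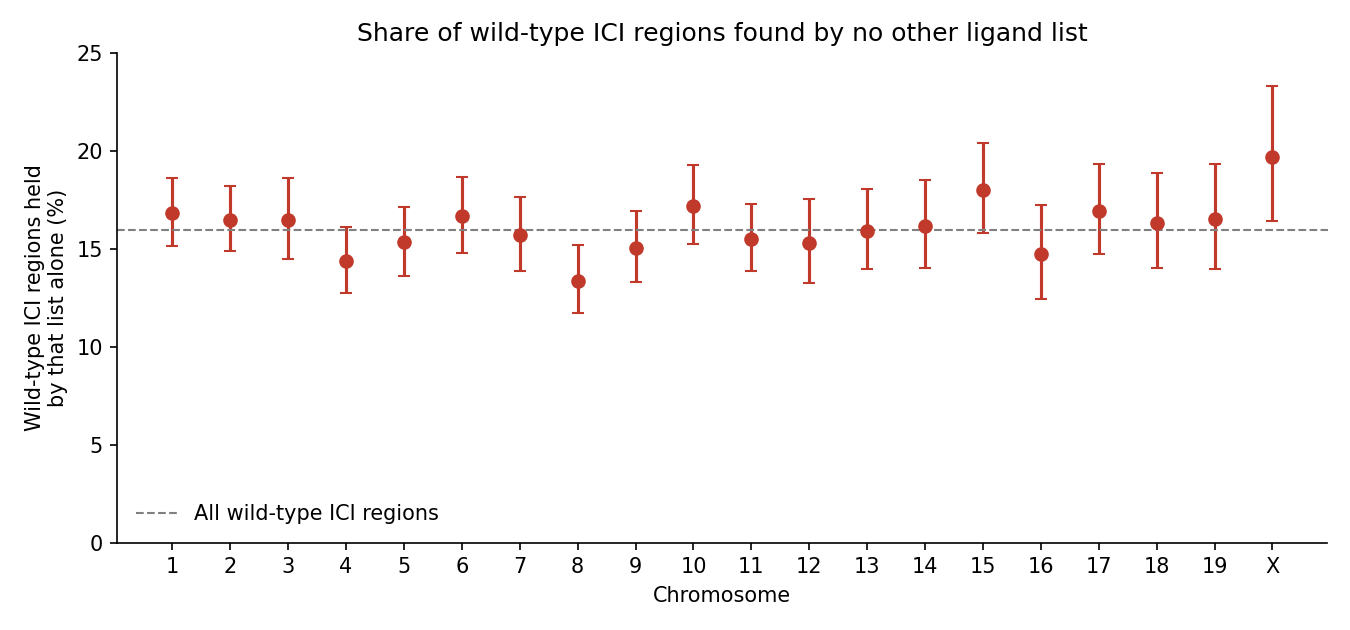
Percentage of wild-type ICI regions held by no other ligand list (vertical axis), by chromosome (horizontal axis), with exact 95% binomial intervals for counting error only; the dashed line is the value over all wild-type ICI regions, 15.97%. Chromosome 8 is lowest at 13.4% and chromosome X highest at 19.7%.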

How the data were processed

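ERα ChIP-seq peak lists of 6 libraries were analysed, 1 for each combination of 2 genotypes and 3 treatments. The submitters' processing notes name HOMER 4.10.3, bedtools 2.24.0, Bowtie2 2.1.0, Picard and SAMtools, and the genome build mm9. The role of each tool, the peak threshold and the use of input were not given in the sources used here. The lists deposited by the authors hold positions only: chromosome, start and end, with no score, and depth is unknown. A peak threshold, or a shallower library, changes which sites are listed and so which regions appear in 1 list alone.

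Peaks were merged and counted with Python 3.11.15, numpy 2.4.6, pandas 2.3.3 and scipy 1.17.1. The 65146 merged regions were checked against bedtools 2.31.1, and 0 differed; counting was also checked on made-up lists. Coordinates count from 1. Regions were named by rule: the 3 fullest windows of 100 kb, the longest run, the first 3 members with vehicle peaks of both genotypes, and those nearest to, just beyond and farthest from the rule's limit. The run of 4 members and the examples beside a shared site were chosen after their values were seen. The members and rules were chosen with earlier results of these data known. Positions relative to genes, gene lists and motifs were planned for a genome and annotation of mm9, which were not used here, so no gene is named and no sequence is shown.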

Additional observations from a re-analysis of the deposited data

How the results depend on the processing

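The number of regions of wild-type ICI alone stayed within 1.5 times of 4228 under every alternative, from 2974 with peaks up to 1000 bp apart merged to 6204 without the wild-type tamoxifen list in the rule. Of 57 alternative values, 34 stayed within the counting interval (or, for counts, within 1.5 times) and 23 moved. The share with a mutant vehicle peak was 1.34% with peaks joined only at 100 bp of overlap, 2.75%, 3.23% and 3.30% with peaks up to 200, 500 and 1000 bp apart merged, 2.49% without the mutant ICI list and 2.63% without the mutant tamoxifen list. The share with a wild-type vehicle peak was 1.07% with peaks joined only at 100 bp of overlap, 1.92% with peaks up to 1000 bp apart merged and 2.74% without the wild-type tamoxifen list. The share within 1 kb of another ligand's peak was 36.4% with peaks joined only at 100 bp of overlap. It was 41.7%, 35.4% and 51.0% with the mutant ICI, mutant tamoxifen or wild-type tamoxifen list left out of the rule. Gaps were still measured to all the other ligand lists, so these settings by construction add regions that overlap another ligand's peak. The share was 18.9%, 8.55% and 0% with peaks up to 200, 500 and 1000 bp apart merged, which by construction removes close neighbours. By distance it was 10.9% at 200 bp, 20.9% at 500 bp, 47.5% at 5 kb, 62.0% at 10 kb and 97.4% at 100 kb. The median distance to the next wild-type ICI peak was 18.2 and 19.4 kb with peaks up to 500 and 1000 bp apart merged. Windows of 50 or 200 kb held at most 4 or 6 members. Alternatives on gene starts and motifs were not run. No paired analysis was possible because each group had 1 library and nothing was tested. Without depth or peak heights, sites just below a list's threshold cannot be told apart from unbound ones.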
